A study of Mus musculus with 12 samples.

Results

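The 9 genes described here encode cytokines of the interleukin-1 (IL-1) family, their natural inhibitors and their receptors, measured in alveolar-like macrophages of the mouse. They were taken by gene symbol from the deposited count table, where all 9 had a row among 40847 rows, and all 9 passed the filter on low counts that left 14749 tested genes. The ligands were Il1a, Il1b, Il1f6 (named Il36a in current annotation) and Il18, the inhibitors Il1rn and Il18bp, and the receptor genes Il1r1, Il1r2 and Il1rap. All 12 cultures were fetal liver alveolar-like macrophages (FLAMs), named as a cell line in the labels and grown with mouse GM-CSF at 30 ng/ml in every group. The 4 groups of 3 libraries were untreated cells, cells grown with recombinant human TGFβ1 at 20 ng/ml, cells exposed for 18 h to 25 ng/ml of Pam3CSK4 (Pam3), which activates TLR2, and cells that had both. The labels give neither the mouse strain nor whether replicates came from separate cultures or animals, so p-values measure only the spread between these libraries, which may be technical.

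IL-1α and IL-1β act through one receptor made of IL-1R1 and the accessory protein IL-1RAP, which signals through MyD88 and IRAK kinases, the same route that Toll-like receptors use. IL-1β and IL-18 are made as inactive precursors that caspase-1 cuts inside inflammasomes, so their mRNA level is not a measure of the active cytokine. The family carries its own brakes: IL-1Ra (from Il1rn) occupies the receptor without signalling, IL-1R2 is a decoy receptor, and IL-18BP neutralises IL-18. In the lung, alveolar macrophages live under constant GM-CSF and TGFβ, and their IL-1 can call in neutrophils.

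Library totals ran from 34036650 to 44374115 counts. A library stood apart from both others of its group in 3 of the 4 groups, untreated replicate 3, TGFβ replicate 2 and Pam3 replicate 1, with chi-square values per degree of freedom of 133 to 219.9 over genes, against at most 28 between the other pairs. Without these 3 libraries the number of members called was the same in all 5 contrasts (5, 6, 5, 8 and 3), and the interactions of Il1a, Il1b and Il1rn were 2.14, 2.12 and 0.87 (edgeR adjusted p 0.00217, 0.0152 and 0.000137). All 15 alveolar macrophage markers and all 8 general macrophage markers on lists chosen for this work had counts in every group, some of them near 0. The alveolar markers differed between groups, with 9 called higher and 6 lower with TGFβ at rest. Krt79, for example, went from a mean of 0.147 CPM untreated to 52.5 CPM with TGFβ, and Fabp4 from 31.1 to 0.132 CPM. The summed level of the general markers was lower with TGFβ, 16588 to 17501 CPM (counts scaled to library size) against 31707 to 35925 in untreated cells. Most of that sum was Lyz2 (15249 against 29824 CPM in the mean), and of the 8 markers 6 were called lower and 1 higher with TGFβ at rest. Lists for erythroid cells, lymphocytes, and mast cells and basophils summed to at most 0.257, 0.288 and 1.2 CPM in any library. Dendritic cell markers summed to 16.8 to 25 CPM, fibroblast and endothelial markers to 1.72 to 4.13 CPM, and hepatocyte markers, nearly all Afp, to 5.8 to 10.1 CPM, highest in libraries with both agents. Because these were bulk samples, fewer expressing cells and less RNA per cell cannot be told apart for any gene below.

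Il1a, Il1b, Il1f6 and Il1rn lie on chromosome 2 of GRCm39. Il1a spans 129140291 to 129152098 and Il1b 129206490 to 129213059, both on the minus strand, and Il1f6 (24105430 to 24115714) and Il1rn (24226865 to 24241506) lie on the plus strand. Il1r2 (40113239 to 40164391) and Il1r1 (40264174 to 40356417) are neighbours on the plus strand of chromosome 1. Il18 lies on chromosome 9 (50466081 to 50493633, plus), Il18bp on chromosome 7 (101638490 to 101668206, minus) and Il1rap on chromosome 16 (26400350 to 26548880, plus). All are protein-coding. Some share exonic sequence with a gene on the other strand: Il1a with the long noncoding RNA Gm14023 (477 bases), Il1b with Il1bos (95 bases), Il18bp with Numa1 (446 bases), and Il1rap with Gm20319 (1425 bases), which had no count. The strand setting used in counting is not given in the sources used here, so reads of such partners cannot be told apart there. Gm14023 had at most 518 counts and Il1bos at most 63, far below Il1a and Il1b, while Numa1 had 4916 to 11065 counts against 74 to 161 for Il18bp, whose counts are therefore uncertain.

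The promoters of the 3 members whose Pam3 response differed with TGFβ are shown together with that of Il18, whose interaction was not called. They come from RefSeq (table build GRCm38.p6; 8 of the 9 members matched, all but Il1f6), cover 250 bases before to 50 bases after a start, run 5′ to 3′ on the gene's strand, and each matched GRCm39 exactly once. The positions are chr2:129151843-129152142 (minus) for Il1a, chr2:129213010-129213309 (minus) for Il1b, chr2:24235133-24235432 (plus) for the third of 3 listed Il1rn starts, and chr9:50465750-50466049 (plus) for Il18. Capitals mark matches on either strand to any of 9 short motifs.
Il1a: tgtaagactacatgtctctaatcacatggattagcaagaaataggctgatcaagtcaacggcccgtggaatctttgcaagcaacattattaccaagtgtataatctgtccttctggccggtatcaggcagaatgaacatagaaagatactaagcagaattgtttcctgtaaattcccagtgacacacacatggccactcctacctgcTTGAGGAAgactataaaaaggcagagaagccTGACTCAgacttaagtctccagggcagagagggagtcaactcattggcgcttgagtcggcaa
Il1b: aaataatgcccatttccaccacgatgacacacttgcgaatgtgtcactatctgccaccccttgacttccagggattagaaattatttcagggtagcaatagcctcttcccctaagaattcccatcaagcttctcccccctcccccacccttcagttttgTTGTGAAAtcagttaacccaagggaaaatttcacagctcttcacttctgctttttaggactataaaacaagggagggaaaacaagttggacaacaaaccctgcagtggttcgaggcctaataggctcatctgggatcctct
Il1rn: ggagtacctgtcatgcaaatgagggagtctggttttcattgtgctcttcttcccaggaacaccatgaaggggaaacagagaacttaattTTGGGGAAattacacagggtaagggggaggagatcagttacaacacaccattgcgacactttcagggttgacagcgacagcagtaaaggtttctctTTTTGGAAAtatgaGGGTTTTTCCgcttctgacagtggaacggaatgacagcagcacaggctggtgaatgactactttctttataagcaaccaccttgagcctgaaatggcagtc
Il18: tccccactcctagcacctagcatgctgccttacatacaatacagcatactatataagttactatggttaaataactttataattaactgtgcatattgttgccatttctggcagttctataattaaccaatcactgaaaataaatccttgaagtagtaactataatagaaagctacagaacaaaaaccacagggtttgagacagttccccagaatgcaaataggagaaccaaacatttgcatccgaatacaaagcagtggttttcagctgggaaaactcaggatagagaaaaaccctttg

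The motifs searched were 2 NF-κB-like patterns (GGG, any 2 bases, TTTCC; and the looser GGG, any 5 bases, CC), AP-1-like TGANTCA, C/EBP-like TTGCGCAA and TTNNGNAA, SMAD-like CAGACA, PU.1-like AGGAAGT, CRE-like TGACGTCA, and an ISRE-like pattern of GAAA, any 2 bases, GAAA. Any match to the stricter NF-κB-like pattern also matches the looser one, and TTGCGCAA also matches TTNNGNAA. The stricter NF-κB-like pattern occurred at -51 from this Il1rn start, and in 1.63% of all 32851 promoters of this length. This start was chosen after the matches were seen. The window of the second Il1rn start, which overlaps it, holds the same match at 29, whereas that of the first start holds none and has a TGANTCA match at -141 instead. TGANTCA occurred at -12 in Il1a (7.81% of all promoters), and TTNNGNAA in Il1a, Il1b and this Il1rn promoter (40.7% of all). The Il18 window held none of the 9, and none of these 4 windows held the SMAD-like (21% of all) or ISRE-like pattern (3.44%). These are letter matches only, and a missing match says only that the letters are not in this window.

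In cells without TGFβ, Pam3 raised 5 of the 9 members and lowered none, against 18.3% of all tested genes called (9.62% higher and 8.66% lower). A gene was called where the quasi-likelihood test of edgeR, with Benjamini-Hochberg adjustment across all genes tested, gave p under 0.05. Il1a, Il1b, Il1rn, Il1f6 and Il1rap rose, and Il18, Il18bp, Il1r1 and Il1r2 were not called. Il1f6 passed the filter on low counts only through the libraries with Pam3, where it is high, so its call adds nothing to the count, and 4 of the other 8 members were called. The median log2 fold change of the members was 0.5 (0.42 over the 8 other than Il1f6), and that of all tested genes was 0.00037.

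With TGFβ present, Il1a, Il1b and Il1rn rose more steeply, while the interactions of Il1f6 and Il1rap were not called. Pam3 raised 5 members and lowered 1, against 38.5% of all genes called (20.4% higher and 18.1% lower). Without Il1f6 these were 4 higher and 1 lower of 8. The members' median was 0.65 (0.6 without Il1f6, and 0.56 without Il1f6 and Il1r2) beside -0.02 for all genes. The interaction, defined as the Pam3 log2 fold change in TGFβ-grown cells less the one in cells lacking TGFβ, was called for 3 members, all higher, against 15.9% of all genes (10.3% higher and 5.67% lower). Its median was 0.3 over the members (0.32 without Il1f6, and 0.18 over the 7 without Il1f6 and Il1r2) and 0.0045 over all genes. Both responses rest on separate libraries.

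The 3 members with a called interaction were Il1b, Il1a and Il1rn. The interaction was also called higher for all 8 general macrophage markers, and their part in these results was not tested. Il1b, which encodes the main secreted inflammatory cytokine of the family, stood at 46.8, 76.6 and 61.3 CPM in the untreated libraries and at 68, 69 and 60 CPM with TGFβ. With Pam3 it stood at 385, 308 and 377 CPM, and with Pam3+TGFβ at 1727, 1512 and 1449 CPM. The untreated and TGFβ libraries overlapped, the Pam3 libraries lay above all of those, and the libraries with both lay above the Pam3 libraries. Pam3 raised Il1b 5.78-fold without TGFβ (log2 fold change 2.53, SE 0.18, edgeR adjusted p 1.28e-05) and 23.8-fold with it (4.57, SE 0.2, adjusted p 9.14e-08). The interaction was 2.04 on the log2 scale (SE 0.24, adjusted p 0.000456).

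Il1a encodes IL-1α, which is active as its precursor and can act as an alarm signal when cells die. Its untreated libraries stood at 90.8, 128 and 114 CPM, its TGFβ libraries at 104, 102 and 85.1 CPM, its Pam3 libraries at 410, 359 and 382 CPM, and those with both at 1532, 1402 and 1321 CPM. As for Il1b, the untreated and TGFβ libraries overlapped, the Pam3 libraries lay above those, and the libraries with both lay highest. The untreated mean was above the TGFβ mean for Il1a (111 against 96.8 CPM) and below it for Il1b (61.6 against 65.7 CPM). The rise with Pam3 was 3.45-fold without TGFβ (log2 1.79, SE 0.13, edgeR adjusted p 3e-06) and 14.6-fold with it (3.87, SE 0.14, adjusted p 2.09e-09). The interaction was 2.09 (SE 0.18, adjusted p 1.3e-05).

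Il1rn, the gene of the receptor antagonist, moved in the same direction over a smaller range. It stood at 411, 512 and 477 CPM in untreated libraries and 513, 542 and 490.2 CPM with TGFβ. Pam3 libraries held 787, 755 and 843 CPM, and libraries with both 1740.2, 1576 and 1517 CPM. All Pam3 libraries exceeded all libraries without Pam3, and those with both exceeded the rest. Pam3 raised it 1.7-fold without TGFβ (log2 0.77, SE 0.07, edgeR adjusted p 2.33e-08) and 3.13-fold with it (1.65, SE 0.072, adjusted p 6.82e-15), an interaction of 0.88 (SE 0.099, adjusted p 5.96e-07). When single libraries were dropped, the interactions of Il1a, Il1b and Il1rn ran from 1.97 to 2.19, from 1.86 to 2.18 and from 0.79 to 0.94, all called.

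**Figure D1:**
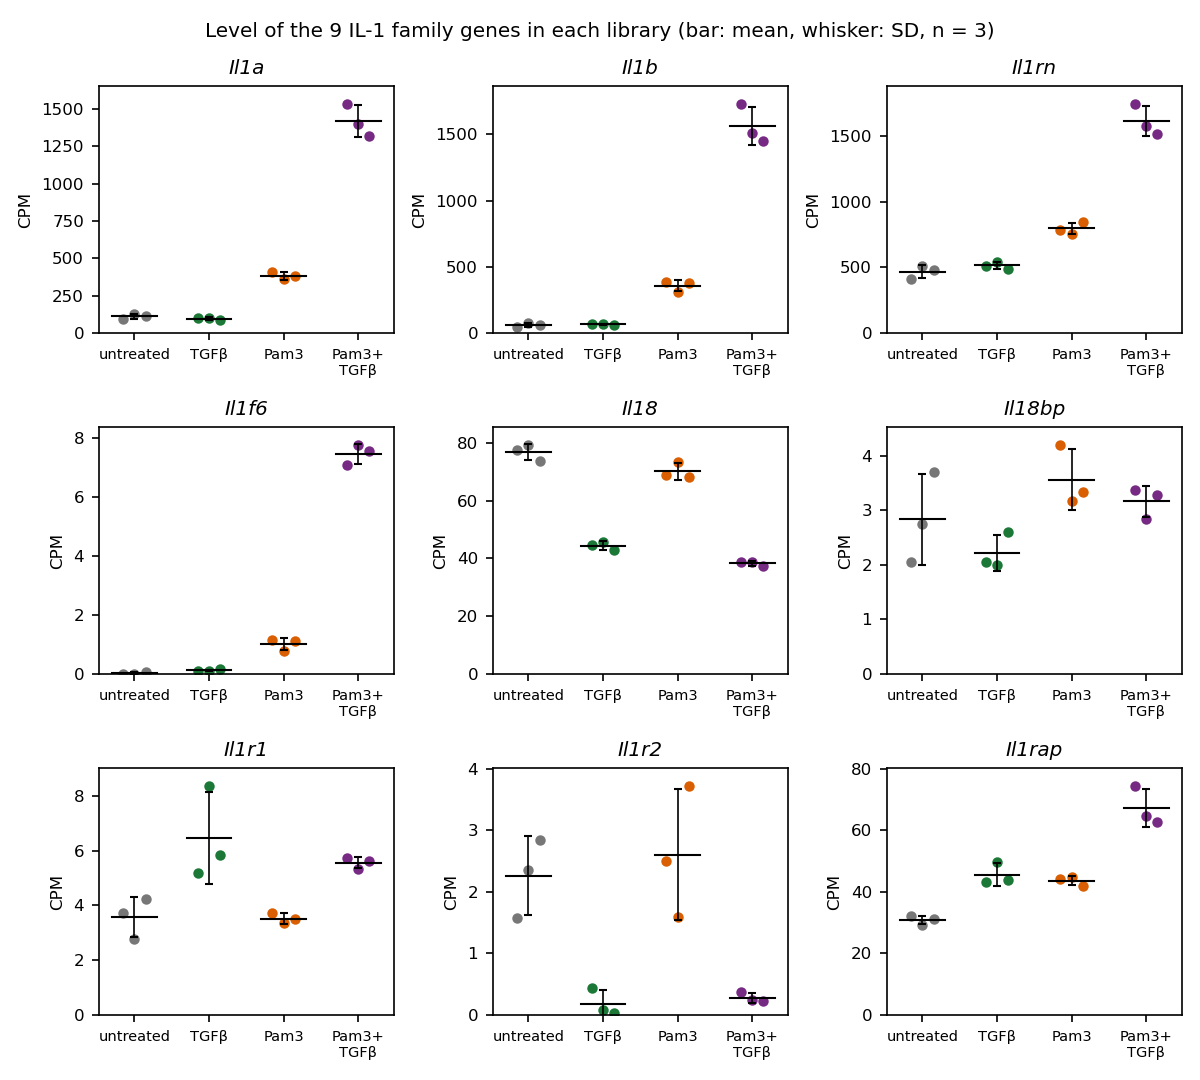
Level of each member in CPM (linear axes from 0, 1 panel per gene) in the 12 libraries, with points for libraries, bars for means and whiskers for SD (n = 3). Il1a, Il1b, Il1rn and Il1f6 are highest in the libraries with both Pam3 and TGFβ, Il18 is lower in both TGFβ groups, and Il1r2 has at most 0.443 CPM in any library with TGFβ.

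The balance of antagonist to cytokine mRNA was read within each library, where scaling between libraries plays no part. Counts in these ratios were not corrected for length. Il1rn has 5536 annotated exonic bases and Il1b 2601, so equal counts do not mean equal levels. The ratio of Il1rn to Il1b counts was 8.78, 6.68 and 7.78 in untreated libraries and 7.54, 7.85 and 8.17 with TGFβ. It was 2.05, 2.45 and 2.24 with Pam3, and 1.01, 1.04 and 1.05 with both. The untreated and TGFβ ranges overlapped, while the Pam3 libraries lay below them and the libraries with both lay lowest, without overlap. On the log2 scale the mean fell from 2.94 ± 0.198 to 1.16 ± 0.13 with Pam3 alone, and from 2.97 ± 0.058 to 0.046 ± 0.03 with Pam3 in TGFβ-treated cells (SD, n = 3). The difference between Pam3+TGFβ and Pam3 was -1.12. Each of these 3 differences had a two-sided exact permutation p of 0.1 (0.133 adjusted over the 12 ratio tests), the smallest p that 3 against 3 allows. TGFβ at rest gave a difference of 0.029 (exact permutation p = 0.8).

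The balance between both IL-1 ligands also shifted. The ratio of Il1a to Il1b counts was 1.68 to 1.94 in untreated libraries, 1.42 to 1.52 with TGFβ, 1.02 to 1.16 with Pam3 and 0.887 to 0.927 with both. None of these 4 ranges overlapped another, and each of the 4 comparisons had the smallest possible exact permutation p of 0.1 (0.133 adjusted). The mean log2 ratio was lower with TGFβ by 0.308 at rest and by 0.249 with Pam3, as the differences of -0.308 and -0.249 show.

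**Figure D2:**
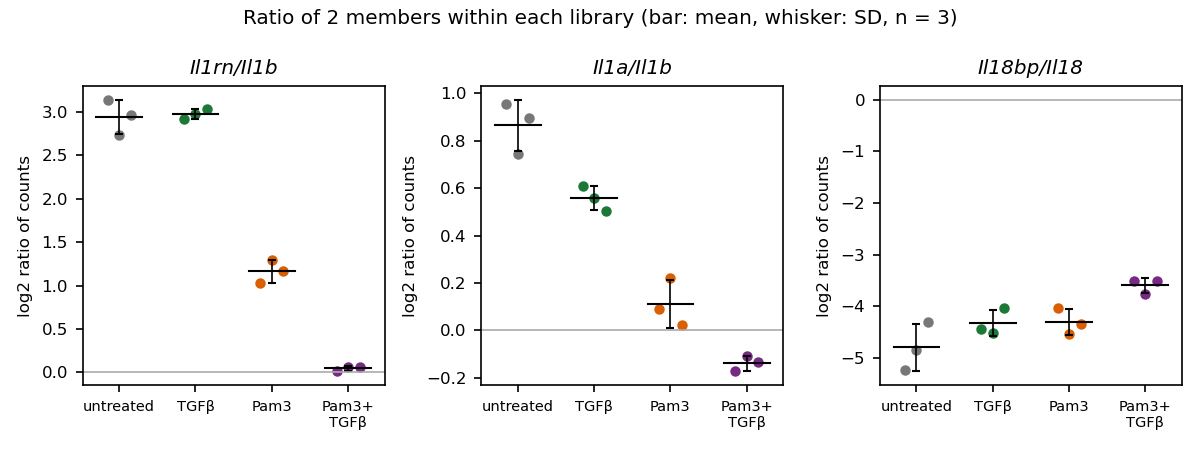
Log2 ratio of the counts of paired members (Il1rn over Il1b, Il1a over Il1b, Il18bp over Il18) in each library, with bars for means and whiskers for SD (n = 3); 0 marks equal counts. Il1rn over Il1b is near 3 in untreated and TGFβ libraries, between 1.03 and 1.29 with Pam3 and at most 0.066 with both.

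Il1f6 encodes IL-36α, a relative of IL-1 known mainly from epithelia that acts through the receptor of Il1rl2. It had 0, 0 and 2 counts in the untreated libraries, 4, 4 and 6 with TGFβ, 44, 29 and 35 with Pam3, and 244, 290 and 335 with both. No groups overlapped. The mean level with both was 7.48 ± 0.342 CPM, against 1.01 ± 0.208 with Pam3 (SD, n = 3). With Pam3 the rate of counts was 57.5 times that in untreated cells (95% exact Poisson interval 15.5 to 481, edgeR adjusted p 2.09e-08), a ratio against 2 counts in all. Il1f6 entered the test only through the libraries with Pam3, where it is high. With no filter on low counts the 4 calls held, the weakest being that for TGFβ at rest (adjusted p 0.00616). In TGFβ-treated cells Pam3 raised it 61.4 times (36.4 to 113, adjusted p 2.48e-13). It was 6.99 times higher with TGFβ than without it at rest (1.61 to 63.4, adjusted p 0.00771) and 7.46 times higher in the presence of Pam3 (6.1 to 9.2, adjusted p 1.01e-09). These intervals cover counting error only. Its interaction was not called (edgeR adjusted p 0.975) and its fitted value turned from 0.3 to -2.35 without untreated replicate 3, the untreated library that held both counts.

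Il18, another ligand cut by caspase-1, responded more to TGFβ than to Pam3. Its untreated libraries stood at 77.5, 79.2 and 73.8 CPM, its Pam3 libraries at 68.8, 73.5 and 68.2, its TGFβ libraries at 44.7, 45.7 and 42.8 and those with both at 38.7, 38.7 and 37.3 CPM. Every library with TGFβ lay below every library without it. TGFβ lowered Il18 by a log2 fold change of -0.79 without Pam3 (SE 0.057, edgeR adjusted p 1.12e-11) and -0.88 with Pam3 (SE 0.058, adjusted p 2.16e-12). Pam3 lowered it slightly in the presence of TGFβ (-0.22, SE 0.058, adjusted p 0.00414), and its value without TGFβ was -0.13 (adjusted p 0.121). The summed general macrophage markers were lower with TGFβ in Pam3-treated cells too, at 25453 to 26133 CPM against 34614 to 35671, again mostly through Lyz2 (23251 against 31013 CPM in the mean). There Fcgr1 stood higher with TGFβ (171 against 88.1 CPM), and 5 of the 8 markers were called lower and 2 higher. Their part in the Il18 result was not tested.

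Il18bp, the gene of the soluble IL-18 inhibitor, was low, at 2 to 4.19 CPM over all libraries, and was called in none of the 5 contrasts. Its Pam3 response with TGFβ was 0.51 (SE 0.22, edgeR adjusted p 0.0652). That contrast was called without untreated replicate 3 (0.52, adjusted p 0.041) and in the fit of the 6 libraries compared (0.52, adjusted p 0.0407). The count ratio of Il18bp to Il18 was 0.0266 to 0.0504 in untreated libraries and 0.0736 to 0.088 with both treatments. The mean log2 ratio with both was higher than with Pam3 alone by 0.711 and higher than with TGFβ alone by 0.733, without overlap, each at the smallest possible exact permutation p of 0.1 (0.133 adjusted). The first of these differences went with lower Il18, as the TGFβ effect with Pam3 was -0.88 for Il18 and -0.17, not called, for Il18bp. Il18bp counts are also uncertain because of the overlap with Numa1. Each treatment alone gave an exact permutation p of 0.3 against untreated cells, with overlapping libraries.

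The effect of TGFβ itself was then compared in resting and in Pam3-treated cells. At rest it changed 5 members, 3 higher (Il1f6, Il1r1 and Il1rap) and 2 lower (Il18 and Il1r2), against 51% of all genes called (22.9% higher and 28.1% lower). With Pam3 it changed 8 members, 6 higher and 2 lower, against 45.3% of all genes (21.5% higher and 23.8% lower), and Il18bp was the member not called. The Il1f6 call at rest rests on 14 counts against 2. Il1f6 passed the filter only through libraries with Pam3 and Il1r2 only through libraries without TGFβ, so neither adds to these counts. Among the other 7 members, 2 were called higher and 1 lower with TGFβ at rest, and 5 higher and 1 lower with Pam3 present. In the fit of untreated and TGFβ libraries alone Il1f6 was not tested, which left 4 of 8 members called, 2 higher and 2 lower. The members' median was 0.09 at rest and 0.66 with Pam3, the same over all 9 members and over the 7 other than Il1f6 and Il1r2, and -0.05 and 0.64 without Il1f6 alone, beside -0.0084 and -0.0017 for all genes. Each of these comparisons shares libraries with a Pam3 response above.

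Il1b, Il1a and Il1rn were not called for TGFβ at rest. Their log2 fold changes were 0.09 (SE 0.17), -0.2 (SE 0.12) and 0.14 (SE 0.07), with edgeR adjusted p of 0.697, 0.214 and 0.0978. The Il1a value was called without untreated replicate 1 (-0.3, adjusted p 0.0067), and the Il1rn value without untreated replicate 2 (0.22, adjusted p 0.00916), without TGFβ replicate 3 (0.2, adjusted p 0.0453) and without Pam3+TGFβ replicate 1 (0.16, adjusted p 0.0456). With Pam3 present, TGFβ raised Il1b 4.38-fold (log2 2.13, SE 0.18, adjusted p 8.05e-06), Il1a 3.7-fold (1.89, SE 0.13, adjusted p 3.72e-07) and Il1rn 2.03-fold (1.02, SE 0.071, adjusted p 2.58e-11).

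**Figure D3:**
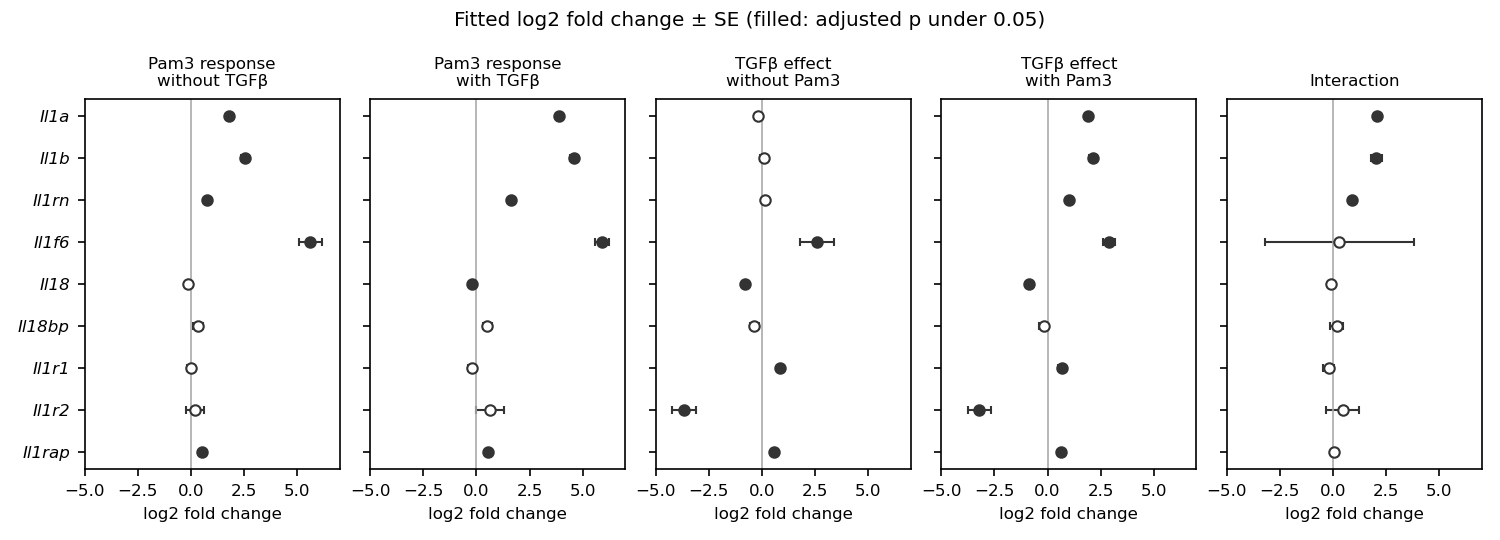
Fitted log2 fold change of each member (horizontal axis, whiskers for SE) in the 5 contrasts, 1 panel each, with filled points for adjusted p under 0.05. Il1a, Il1b and Il1rn have filled points right of 0 in the interaction panel, and Il1r2 lies near -3.65 and -3.2 in the panels of the TGFβ effect. Il1f6 has a whisker of 3.52 in the interaction, against SE of 0.54 and 0.34 for its Pam3 responses without and with TGFβ. The SE is a quotient that is unreliable where the test statistic is near 0, so this whisker is not a measure of spread.

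Of the receptor genes, Il1r2 and Il1r1 were called for TGFβ and not for Pam3, and Il1rap was called for both. Il1r2, the decoy receptor, had 60, 98 and 100 counts in untreated libraries and 96, 60 and 117 with Pam3, but 16, 3 and 1 with TGFβ and 13, 9 and 10 with both. No library with TGFβ reached a library without it. TGFβ lowered it 12.6-fold at rest (log2 -3.65, SE 0.56, edgeR adjusted p 1.16e-05) and 9.22-fold with Pam3 (-3.2, SE 0.53, adjusted p 3.14e-05). Il1r2 entered the test only through the libraries without TGFβ, where it is high, and with no filter on low counts both calls held (-3.66 and -3.19, adjusted p 2.26e-16 and 3.59e-14). TGFβ replicate 1 held most of the counts of its group. Without it the effect at rest was -5.37, and the Pam3 response with TGFβ, not called with all libraries (0.65, adjusted p 0.477), was called at 2.36 (adjusted p 0.0109).

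IL-1R2 is also abundant on neutrophils, so the 8 neutrophil markers are given beside it. Their summed level moved with Il1r2, at 465 to 499 CPM in untreated, 505 to 530 in Pam3, 95.2 to 98.1 in TGFβ and 63.6 to 70.3 CPM in Pam3+TGFβ libraries. Nearly all of it came from Mmp8 (484 ± 17.3 CPM untreated and 89.4 ± 0.812 with TGFβ, SD, n = 3). Cxcr2 went the other way, from 0.0679 ± 0.0659 to 6.74 ± 0.513 CPM with TGFβ at rest and from 0 to 1.02 ± 0.0528 CPM with TGFβ in Pam3-treated cells. Of the 4 markers tested, 2 were called higher and 1 lower with TGFβ at rest, and 1 higher and 1 lower with Pam3 present. Mpo and Retnlg, which mark neutrophils and their precursors, had no count in any group and Ly6g had at most a mean of 0.0495 CPM. Megakaryocyte markers, mainly Ppbp, also moved with it, at 5.84 to 7.21 CPM in untreated against 0.0553 to 0.346 CPM in TGFβ libraries. The part of these markers in the Il1r2 result was not tested.

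Il1r1, the signalling receptor of IL-1α and IL-1β, rose with TGFβ. It stood at 3.73, 2.77 and 4.22 CPM in untreated libraries, 5.17, 8.35 and 5.84 with TGFβ, 3.72, 3.34 and 3.49 with Pam3, and 5.73, 5.33 and 5.6 with both. All TGFβ libraries lay above all libraries without it. The log2 fold change with TGFβ was 0.86 at rest (SE 0.18, edgeR adjusted p 0.000199) and 0.66 with Pam3 (SE 0.18, adjusted p 0.00359). The Pam3 responses were -0.02 (SE 0.18) and -0.22 (SE 0.17), neither called, and the first changed sign when any of 3 of the 12 libraries was dropped. The second ran from -0.37 to -0.0043 when single libraries were dropped.

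Il1rap, the accessory chain that completes the receptors for IL-1, IL-33 and IL-36, rose with either agent. It stood at 29.3 to 32 CPM in untreated libraries, 43.1 to 49.9 with TGFβ, 42 to 45 with Pam3 and 62.8 to 74.3 with both. Only the libraries with a single agent overlapped each other. TGFβ raised it by 0.56 at rest and 0.62 with Pam3, and Pam3 by 0.5 without and 0.56 with TGFβ, on the log2 scale (SE 0.071 to 0.072, largest edgeR adjusted p 1.09e-05). The interaction was 0.06 (SE 0.1, adjusted p 0.786), so the difference between both Pam3 responses was not called.

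Levels of different members were compared as CPM per kilobase of annotated exon. In untreated cells Il1rn stood at 84.3 ± 9.22, above Il1a (31.9 ± 5.45), Il18 (25.5 ± 0.918) and Il1b (23.7 ± 5.72; SD, n = 3), and the ranges of the last 3 overlapped. Within each untreated library, however, Il1a stood above Il1b per kilobase, by 1.25 to 1.45 times. Il1rap followed at 2.02 ± 0.0929, and the other 4 members stood below 1. With Pam3, Il1rn (144 ± 8.02) and Il1b (137 ± 16.2) overlapped. With both treatments Il1b stood at 601 ± 56, Il1a at 407 ± 30.4 and Il1rn at 291 ± 20.9, in ranges that did not overlap, and Il18 at 12.7 ± 0.265. Il1rn has several starts, and its 5536 exonic bases include all of them, which makes its level per kilobase a low estimate and its place in these orders uncertain.

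Genes with the most similar course over the 12 libraries were found as those with the smallest root mean square difference of centred log2 CPM. For Il1a they were Xaf1 (0.158), Rnf213 (0.239) and Ddx58 (0.318), where the median over all tested genes was 1.61. For Il1b they were Oas3 (0.331), Slfn8 (0.334) and Irf7 (0.345; median 1.97). For Il1f6 they were Ifit3b (0.625), Ifit3 (0.627) and Rtp4 (0.763; median 2.64), of which Ifit3b and Ifit3 are near-identical copies with uncertain counts. Il1rn ran with other genes, Procr (0.0702), Clec5a (0.0899) and Sdc4 (0.0993; median 0.78), and Il18 with Gm2a (0.049), Ivd (0.0613) and Tspan5 (0.0617; median 0.518). Xaf1, for example, had a mean of 6.51 ± 1.27 CPM untreated and 6.27 ± 1.27 CPM after TGFβ alone, beside 28.4 ± 1.13 after Pam3 alone and 86 ± 0.47 after the combination (SD, n = 3).

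The rest of the pathway was read from a list of 41 other genes with a row in the table, of which 34 were tested. Pam3 changed 12 of them without TGFβ (7 higher, 5 lower), beside 18.3% of all genes, and 25 with TGFβ (20 higher, 5 lower), beside 38.5% of all genes. TGFβ changed 25 at rest (9 higher, 16 lower), beside 51% of all genes, and 22 with Pam3 (12 higher, 10 lower), beside 45.3%. The interaction was called for 16, with 14 higher and 2 lower, beside 15.9% of all genes, and its median was 0.23 against 0.0045 for all genes.

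Among the other ligands, Il1f9 (IL-36γ) rose with Pam3 and had a called interaction. It stood at 13.4, 18.2 and 14.3 CPM in untreated libraries, 20.8, 23 and 18.7 with TGFβ, 26.2, 22.1 and 24.8 with Pam3, and 137, 122 and 115 with both. The interaction was 1.91 (SE 0.15, edgeR adjusted p 4.15e-08). TGFβ also raised it at rest, without overlap of the libraries (0.44, SE 0.11, adjusted p 0.00248), where Il1a, Il1b and Il1rn were not called. Its receptor gene Il1rl2 was well expressed in all libraries, at 115 to 162 CPM. Il33, the other tested ligand, stood at 1.66 to 2.64 CPM in group means and was called in no contrast. Il1f5 and Il1f10 had no count, and Il1f8 had 1.

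Of the 4 other receptor genes tested, Il1rl1 was nearly lost with TGFβ. Il1rl1 encodes ST2, the receptor of IL-33. It had 682, 604 and 633 counts in untreated and 613, 540 and 396 in Pam3 libraries, against 6, 13 and 8 with TGFβ and 10, 10 and 21 with both. The TGFβ effect was -6.14 at rest (SE 0.21, edgeR adjusted p 2.16e-18) and -5.33 with Pam3 (SE 0.2, adjusted p 1.62e-17). The mast cell marker Cpa3 moved with it, at means of 0.599 and 0.406 CPM in untreated and Pam3 cells against 0.0334 and 0.0452 CPM in the matching TGFβ groups, as did Ppbp (6.03 and 9.09 against 0.0494 and 0.123 CPM). Tpsb2, Cma1 and Fcer1a, also mast cell markers, had no count in any group. The part of these markers was not tested. Il18rap, the accessory chain of the IL-18 receptor, fell from 7.96 ± 0.621 to 3.11 ± 0.775 CPM with TGFβ at rest (SD, n = 3; -1.35, SE 0.16, adjusted p 1.24e-07). Sigirr, an inhibitory receptor of the family, fell with TGFβ at rest (-1.02, SE 0.31, adjusted p 0.00836) and with Pam3 in cells without TGFβ (-1.19, SE 0.32, adjusted p 0.00887). The interactions of Il1rl1, Il18rap and Sigirr (0.81, 0.61 and 0.61) were not called. Il1rl2, the fourth, went the other way: TGFβ raised it at rest (0.32, SE 0.046, adjusted p 2.37e-06), and its interaction was called lower (-0.26, SE 0.065, adjusted p 0.00734).

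Of the 14 tested inflammasome and processing genes, the interaction was called higher for 8 and lower for 1, beside 10.3% and 5.67% of all genes. Casp4, the sensor of intracellular lipopolysaccharide, had means of 10.6 ± 0.687 CPM untreated and 3.88 ± 0.505 CPM after TGFβ alone, beside 13.3 ± 1.83 after Pam3 alone and 19.2 ± 1.12 after the combination (SD, n = 3). Its interaction was 1.98 (SE 0.16, edgeR adjusted p 9.79e-10). Nlrp3, which nucleates the inflammasome that matures IL-1β, had means of 83.5 ± 5.99, 61.2 ± 1.94, 111 ± 9.52 and 147 ± 12.9 CPM in that sequence of groups (SD, n = 3), and its interaction was 0.85 (SE 0.097, adjusted p 5.73e-07). Ninj1, which mediates membrane rupture, had an interaction of 0.68 (SE 0.17, adjusted p 0.00627), but its level with both (14.4 ± 0.403 CPM) stayed below that with Pam3 (19.8 ± 1.61). Unlike Il1a, Il1b and Il1rn, each of these genes was called lower with TGFβ at rest. They were named for a large interaction, and a lower level with TGFβ at rest itself raises the interaction, so this trait comes partly from the choice.

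Among 14 genes of receptor signalling, 5 had a called interaction, all higher, beside 10.3% of all genes called higher. Myd88, the adaptor, rose by 0.21 with Pam3 alone and by 0.95 in the presence of TGFβ (interaction 0.74, SE 0.068, edgeR adjusted p 7.48e-09). Irak3, an inhibitor of the IRAK complex, stood at 46.9 ± 2.24 CPM untreated, 25.6 ± 1.84 with TGFβ, 140.02 ± 8.11 with Pam3 and 126 ± 2.33 after the combination (SD, n = 3; interaction 0.72, SE 0.085, adjusted p 6.23e-07). Peli1, a ubiquitin ligase of the pathway, had an interaction of 0.46 (SE 0.1, adjusted p 0.00165).

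**Figure D4:**
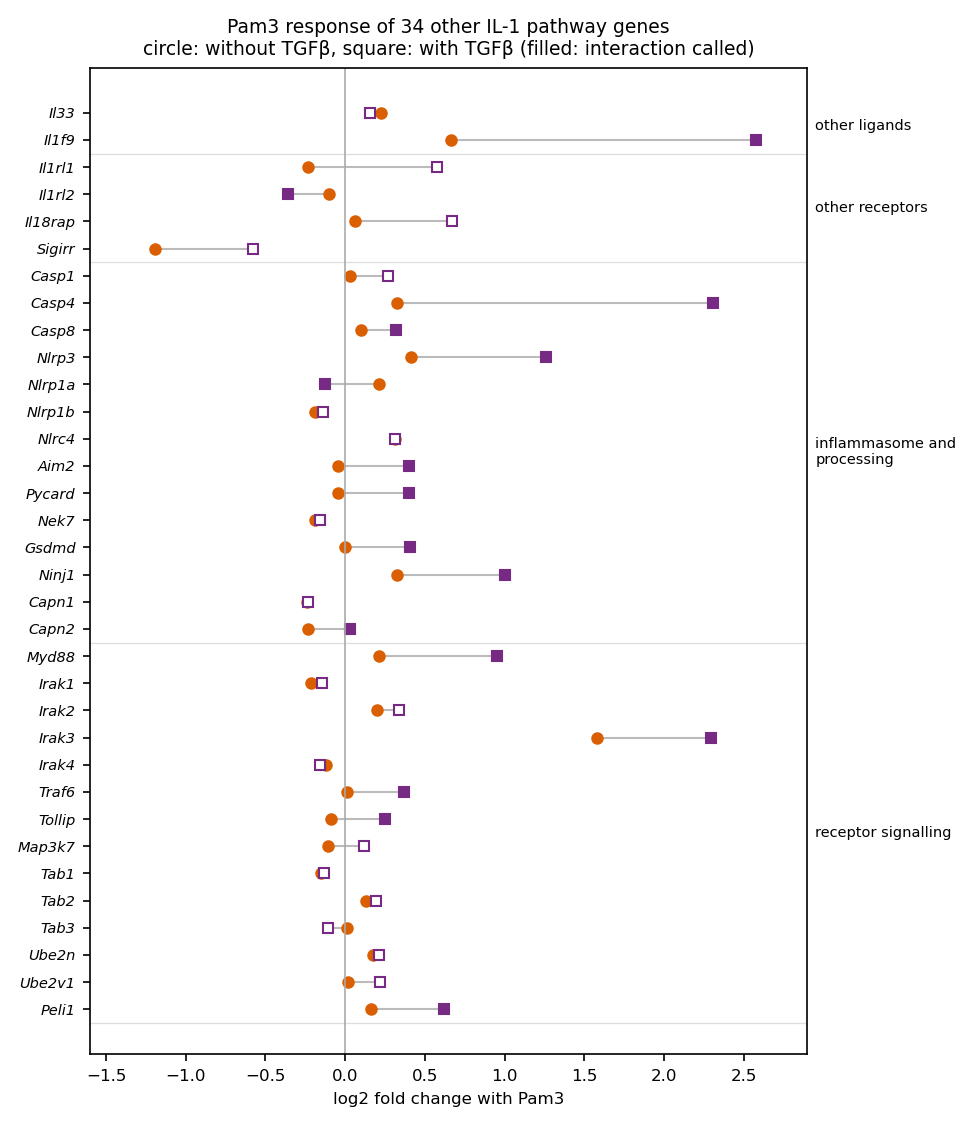
Log2 fold change with Pam3 (horizontal axis) of the 34 other tested IL-1 pathway genes, grouped by role, without TGFβ (circles) and with TGFβ (squares, filled where the interaction was called). Casp4 and Il1f9 have the widest gaps between circle and square among these genes, and Irak3 has the circle farthest to the right.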

How the data were processed

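Per the labels' protocols, polyadenylated RNA was made into stranded libraries, and the submitters' processing notes name Bowtie2 2.4.1, GRCm39, featureCounts of Subread 2.0.0 and DESeq2 1.36.0. Annotation, strand setting and handling of multiply aligned reads are not given in the sources used here. Bowtie2 does not split reads over introns, so junction reads of these multi-exon genes can be lost. The authors deposited a table of raw counts, whole numbers of reads for each gene symbol. The deposited normalized signal of the authors equals the count divided by 1 constant per library and served only for an alternative.

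Counts were tested with edgeR 4.0.16 in R 4.3.3 (filterByExpr at a minimum count of 10, TMM, robust quasi-likelihood fit) over all 12 libraries with 4 group means. P-values were adjusted by Benjamini-Hochberg over 14749 genes. The SE is the log2 fold change divided by the square root of F, and is unreliable where F is near 0. CPM uses TMM-scaled library sizes, and ratios used a pseudocount of 0.5. The procedure was checked on simulated counts with a fixed spread and no library that stood apart. That check covers the calculation only and says nothing about the spread in these data. No library repeated another: between replicates of a group, chi-square over its degrees of freedom was 9.99 to 219.9. Positions and exon lengths come from GENCODE M39. The members and lists were chosen with earlier results of these data known. Every member is named. From each of 4 pathway lists, up to 3 tested genes with the largest absolute interaction are named, plus the 3 genes most like each of 5 cytokine genes. Any further gene was named after its values were seen. Alternatives were DESeq2-type size factors, upper-quartile scaling, DESeq2 1.42.0, limma-trend (limma 3.58.1, pseudocount 1), other filters, a replicate block, the 6 libraries compared, leaving out each library and, added after seeing the data, leaving out 3 libraries that stand apart.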

Additional observations from a re-analysis of the deposited data

Results flagged for a closer look

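For the genes listed here, the interaction between Pam3 and TGFβ was called by edgeR over all 14749 genes. All values are differences of log2 fold changes. Among the members they were 2.09 for Il1a, 2.04 for Il1b and 0.88 for Il1rn. Among the other pathway genes they were 1.98 for Casp4, 1.91 for Il1f9, 0.85 for Nlrp3, 0.74 for Myd88, 0.72 for Irak3, 0.68 for Ninj1 and 0.46 for Peli1. For Il1a, Il1b and Il1rn the TGFβ effect at rest was not called, so the higher response went with a higher level after Pam3. Casp4, Nlrp3, Myd88, Irak3 and Ninj1 started from a lower level with TGFβ, and of these Irak3 and Ninj1 did not exceed the Pam3 level without TGFβ. Such a lower start itself raises the interaction by which these genes were named.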

How the results depend on the processing

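Every called contrast of a member kept its direction and call in all 324 values from fits that left out a library and in all 233 values from other alternatives in which it was tested. These fits share most of their libraries. Their values include those of Il1f6 and Il1r2, which passed the filter only through groups where they are high. In the fit of the 6 libraries compared, 8 members were tested for the Pam3 response with TGFβ (all but Il1r2, 7 called) and 8 for the TGFβ effect at rest (all but Il1f6, 4 called). Il1f6 and Il1r2 were not tested at a minimum of 10 counts in every library. The counts of called members ran from 5 to 5, 6 to 7, 5 to 6, 8 to 8 and 3 to 3 over the fits without a library, for the Pam3 responses without and with TGFβ, the TGFβ effects at rest and with Pam3, and the interaction. The other alternatives gave 4 to 5, 5 to 7, 4 to 6, 6 to 8 and 3 to 3. Upper-quartile scaling changed the split of all calls in the Pam3 response without TGFβ from 1419 higher and 1278 lower to 1299 and 1495. In the Pam3 response with TGFβ the split went from 3008 and 2670 to 2477 and 3489. In the interaction it went from 1516 and 836 to 1255 and 1097. This scaling moved no median of all genes by over 0.1. A minimum of 10 counts in every library changed the TGFβ effect with Pam3 from 3165 higher and 3514 lower to 3261 and 2903.

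Values that were not called changed sign in a few fits, and the cause was not tested. With limma-trend the Pam3 response of Il1r1 without TGFβ became 0.0027. Without the 3 libraries that stand apart, an alternative chosen after seeing the data, it became 0.075, and the interactions of Il1f6, Il18bp and Il1r2 became -2.39, -0.0059 and -0.17. Without a library, that response ran from -0.17 to 0.12 for Il1r1 and from -0.14 to 0.46 for Il1r2, and the TGFβ effect on Il1b at rest from -0.049 to 0.28. Interactions ran from -2.35 to 0.87 for Il1f6, -0.046 to 0.35 for Il18bp, -0.36 to 0.0094 for Il1r1, -0.077 to 2.16 for Il1r2 and -0.044 to 0.11 for Il1rap. The Il1rn to Il1b log2 ratio for TGFβ at rest ran from -0.074 to 0.12. Il1rn at rest with TGFβ was called with upper-quartile scaling (0.17), without a filter (0.14) and at a minimum of 10 counts (0.16). Untreated replicate 3 set the fitted Pam3 response of Il1f6, 5.6 with it and 8.26 without it, and its TGFβ effect at rest, 2.59 and 5.25. Limma-trend gave 4.51 and 1.77, and the fit without the 3 libraries 8.14 and 5.39.

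With a replicate block, 5714 genes were called in the Pam3 response with TGFβ (5678 without it) and 2393 in the interaction (2352), and no call of a member changed. The numbers did not clearly pair the samples. Same-numbered libraries had correlated deviations (r over 0.1) in 7 of 18 pairs, from -0.17 to 0.3 (median 0.061). Differently numbered libraries had them in 8 of 36 pairs, from -0.4 to 0.32 (median -0.058). The best match in another group had the library's own number in 16 of 36 cases. Only 2 of 12 libraries correlated best with their own number in every other group.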

Other observations

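Both noncoding genes that lie opposite Il1a and Il1b were looked at after their values were seen. Gm14023 had means of 1.33 ± 0.281 CPM untreated and 1.79 ± 0.22 CPM after TGFβ alone, beside 4.5 ± 1.2 after Pam3 alone and 12.3 ± 0.984 after the combination (SD, n = 3). Its interaction was 1.02 (SE 0.27, edgeR adjusted p 0.00951). Its counts were 0.918 to 1.45% of the Il1a counts in untreated, 1.55 to 2.09% in TGFβ, 0.946 to 1.54% in Pam3 and 0.762 to 0.955% in Pam3+TGFβ libraries. Il1bos had 0 to 13 counts in untreated and 32 to 63 in Pam3+TGFβ libraries, and its interaction was not called (adjusted p 0.942). Reads of these genes and of Il1a or Il1b cannot be told apart where the exons overlap.

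Il18r1, which encodes the ligand-binding chain of the IL-18 receptor, had 0 to 16 counts over the 12 libraries and was not tested, while its partner Il18rap had 91 to 366 counts.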
